A study of Mus musculus with 11 samples.

Results

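The genes described here are 10 members of 3 vascular signalling systems, apelin, endothelin and angiopoietin. They comprise the ligand genes Apln, Edn1, Angpt1 and Angpt2, the receptor genes Aplnr, Ednra, Ednrb, Tek and Tie1, and Ece1, which encodes an endothelin-processing enzyme. They were chosen by symbol, with earlier results of these data known, as 10 of the 31053 genes measured in every library. The material was dissociated mouse lung profiled by droplet-based 3' single-cell RNA sequencing in 11 libraries. One library was wild type (WT, +/+). The other groups are named for p21 (Cdkn1a), a cell-cycle inhibitor gene, and kept 1 wild-type allele by their labels: 3 libraries were p21Het (+/-), 5 were p21mTert (+/mTert) and 2 were p21mTertCD (+/mTertCD). Per the series title, mTert (telomerase reverse transcriptase) is induced in cells positive for p21. The mTertCD allele is not spelled out in the labels. Mice were labelled 18 months old, except that the age labels of p21Het replicate 1 and p21mTert replicate 1 read 19 and 20 months while their titles read 18. Whether each library came from a separate mouse is not given in the sources used here, so p-values measure the spread between libraries.

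Apelin, secreted from the precursor encoded by Apln, acts on the G-protein-coupled receptor encoded by Aplnr and is known for its part in vessel growth and tone. Endothelin-1, a vasoconstrictor peptide, is cut from a precursor (Edn1) by the membrane protease endothelin-converting enzyme (Ece1). Its receptor Ednra is known for contraction of smooth muscle, whereas Ednrb is known in endothelium for nitric oxide release and for clearance of the peptide from lung blood. Angiopoietin-1 (Angpt1) activates the endothelial receptor tyrosine kinase Tie2, the product of Tek. Angiopoietin-2 (Angpt2) is a context-dependent partial agonist or antagonist of the same receptor, and Tie1 is a related receptor that modulates it. In the lung, capillary endothelium comprises general capillary cells (gCap) and large, thin aerocytes (aCap) that line the gas exchange surface.

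Of 81983 deposited barcodes, 69266 held 1000 to 30000 UMIs (unique molecular identifiers) and at most 14% mitochondrial UMIs, and 62964 of these (90.9%) fell into a lineage by marker genes that included none of the 10 members. The gates gave 6959 endothelial-like, 278 mural-like, 1416 fibroblast-like, 4795 epithelial-like and 49516 immune-like cells. Of 20 markers kept out of the gates as a check, 20 were highest in their own lineage, at least 3.32-fold above the next. Mural-like cells were few, with 11 to 42 per library, and only 34 cells in all were pericyte-like. The 3 libraries of the first deposit (WT, p21Het replicate 1 and p21mTert replicate 1) stood apart in their median mitochondrial share, at 6.30% to 6.58% against 2.82% to 4.28% in the later 8. Any 2 libraries shared 4 to 20 cell barcodes. Libraries held 42038434 to 85988955 UMIs in all. As a check of the labels, Tert had 0.544 to 0.842 CPM (UMIs of a gene per 1000000 UMIs) over all kept cells of p21Het libraries, 1.13 in the WT library, 1.90 to 2.59 in p21mTertCD and 2.00 to 3.28 in p21mTert libraries. Cdkn1a lay between 118 and 187 CPM in every library. In the first deposit the WT library (155) was above p21Het replicate 1 (136) and p21mTert replicate 1 (124). In the later deposit, which has no WT library, p21Het replicates 2 and 3 were at 183 and 187. With 1 WT library, these levels cannot tell whether the labelled loss of an allele shows. Whether the altered allele lacks the counted 3' part is not given in the sources used here.

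Levels below are CPM within a class of cells in 1 library. Counting was from the 3' end, so levels of different genes were not compared with each other. In all, 7 members had their highest level in endothelial-like cells, 2 (Ednra and Angpt1) in fibroblast-like cells and 1 (Angpt2) in mural-like cells. For each member the lineages were put in order of mean level, and neighbours in that order were compared within libraries by an exact 2-sided sign-flip permutation test on log2(CPM + 1). With the 10 comparisons of aCap-like with gCap-like cells, this made 50 comparisons, over which p-values were adjusted by Benjamini-Hochberg. The smallest p that 11 libraries allow is 0.000977, which became 0.00203 after adjustment. The order of lineages came from the same libraries as the tests. Neighbour pairs were thus not set in advance, and p-values near the threshold need caution. Of the 50 pairs, 7 had a median of at most 3 UMIs per library in both classes and are not given. Of the 34 neighbour pairs left, 25 passed at an adjusted p under 0.05, among them the first and second lineage of each of the 10 members. With p-values adjusted over the pairs of all genes, 24 of the 34 passed, and 9 of the 10 first pairs, the exception being Ednrb. Over all genes 45.2% of 55935 such pairs passed, and 59.6% of 16829 first pairs, so that lineages gated by markers differed in many genes.

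**Figure D1:**
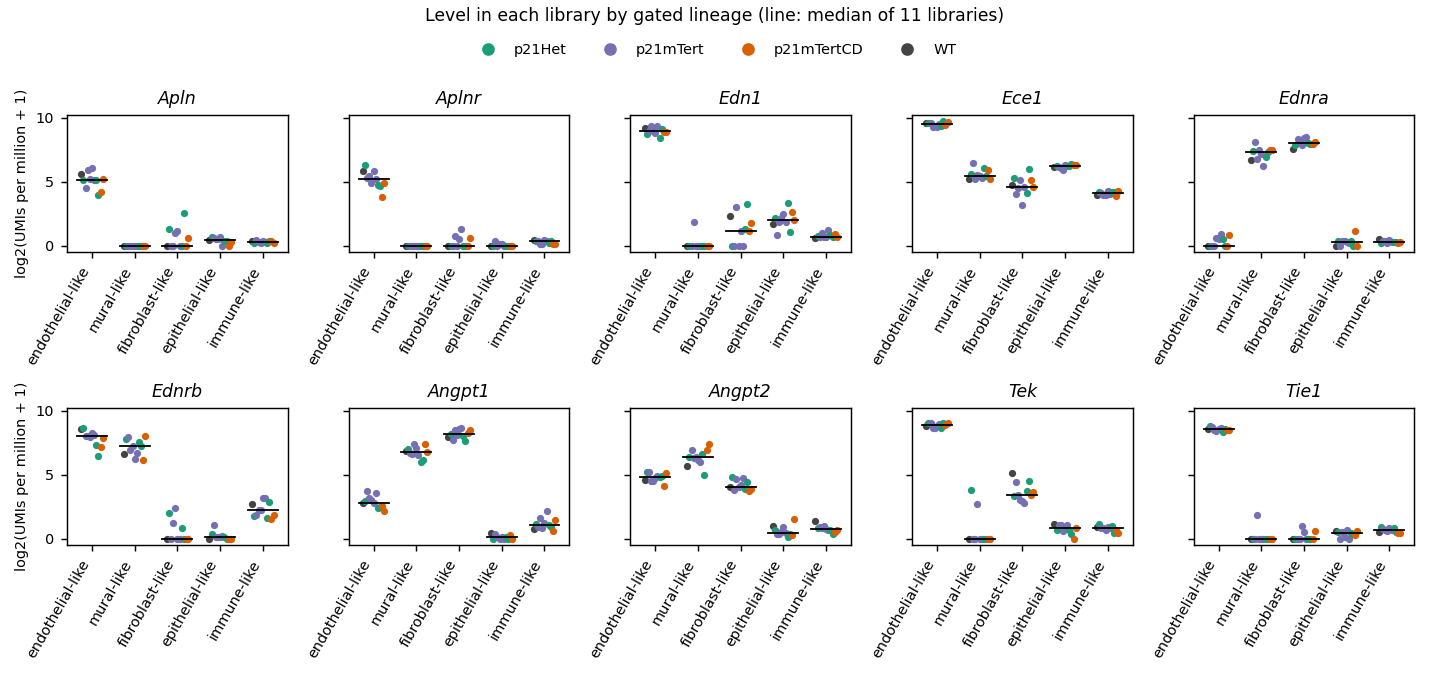
Level of each of the 10 genes in 5 marker-gated lineages, on the vertical axis as log2(CPM + 1). Each point is 1 of 11 libraries, coloured by genotype label, and the line is the median; Apln, Aplnr, Edn1, Tek and Tie1 stand high in endothelial-like cells, while Ednra and Angpt1 are high in mural-like and fibroblast-like cells.

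Among the ligands, Apln was an endothelial transcript. Its level in endothelial-like cells was 14.8 at the lowest, 34.6 at the median and 65.8 CPM at the highest of 11 libraries. No library exceeded 5.04 in fibroblast-like, 0.601 in epithelial-like or 0.399 in immune-like cells, and none of the 278 mural-like cells held an Apln UMI, which allows up to 1.08% of such cells to hold a UMI at their median depth of 9458.5 UMIs and sets no limit on the cells that express the gene. Endothelial-like cells exceeded fibroblast-like cells, next in order, by 4.48 ± 1.21 (SD, n = 11) on the log2 scale, in 11 of 11 libraries (exact sign-flip permutation test, adjusted p = 0.00203). The order of the other lineages rests on few UMIs: epithelial-like and immune-like cells did not differ beyond their spread (0.11 on the log2 scale, adjusted p = 0.231, exact). With each cell thinned to 1000 UMIs, Apln was instead lower in epithelial-like cells (-0.39, adjusted p = 0.00465, exact).

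Edn1 had the same leading lineage. Endothelial-like cells held 338, 501 and 647 CPM at the lowest, median and highest library. Epithelial-like cells followed with a median of 2.98, and the groups of libraries did not overlap, with a difference of 6.95 ± 0.91 (SD, n = 11, adjusted p = 0.00203, exact). Fibroblast-like cells (median 1.26) differed beyond the spread neither from epithelial-like (adjusted p = 0.183, exact) nor from immune-like cells (adjusted p = 0.289, exact). A single Edn1 UMI was found in all mural-like cells together.

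Angpt1 was highest in fibroblast-like cells, with 200.4, 292 and 401 CPM at the lowest, median and highest library. Mural-like cells came next with 64.5, 112 and 169, lower in 11 of 11 libraries by 1.41 ± 0.48 (SD, log2; adjusted p = 0.00203, exact). Endothelial-like cells, where the Tie2 receptor is made, had 3.61, 6.09 and 12.3, below mural-like cells by 3.89 ± 0.63 (SD, adjusted p = 0.00203, exact) but above immune-like cells by 1.72 ± 0.53 (SD, adjusted p = 0.00203, exact). Each step of the Angpt1 order passed the test.

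Within the immune-like lineage, Angpt1 was found in small classes, among them platelets, which are known to store angiopoietin-1. The 94 platelet-like cells held 91 UMIs, or 249 CPM pooled, and only 2 libraries had 10 of these cells, at 128 and 239.9 CPM. Basophil/mast-like cells had 41.2 CPM pooled and ranged from 0 to 103 over 8 libraries. NK-like cells, with at least 53 per library, gave 5.49, 16.6 and 29.0 at the lowest, median and highest of 11 libraries. Thinned to 1000 UMIs per cell, 17.0% of platelet-like cells held an Angpt1 UMI against 0.0590% of B cell-like cells.

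Angpt2 was shared among 3 lineages. Mural-like cells had 29.9, 81.6 and 165 CPM at the lowest, median and highest library, endothelial-like cells had 16.6, 26.6 and 35.8, and fibroblast-like cells 12.4, 15.7 and 27.8. Mural-like exceeded endothelial-like cells in 11 of 11 libraries by 1.56 ± 0.71 (SD, log2; adjusted p = 0.00203, exact), although the comparison missed the threshold with cells thinned to 1000 UMIs (adjusted p = 0.0890, exact). Endothelial-like exceeded fibroblast-like cells in 10 of 11 libraries by 0.57 ± 0.45 (SD, adjusted p = 0.00376, exact). Inside the endothelial lineage the gene was concentrated in lymphatic-like cells, which were 4.10% of the cells but held 46.2% of the Angpt2 UMIs. Their level was 79.8, 178 and 318 CPM at the lowest, median and highest library, beside medians of 16.9 in gCap-like and 15.8 in venous-like cells.

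Among the receptors, Aplnr stood at 13.2, 36.4 and 78.6 CPM in endothelial-like cells at the lowest, median and highest library, and no library passed 1.51 in any other lineage. The difference from fibroblast-like cells, next in order, was 4.90 ± 0.77 (SD, log2; n = 11, adjusted p = 0.00203, exact). No Aplnr UMI was found in the 278 mural-like cells.

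Tek and Tie1 were both endothelial. Tek had 390.2, 477 and 532 CPM in endothelial-like cells at the lowest, median and highest library, and Tie1 had 328, 370.2 and 451. Tie1 fell off steeply: the next lineage, immune-like cells, had a highest library of 0.861, a difference of 7.88 ± 0.17 (SD, log2; adjusted p = 0.00203, exact). Tek kept a low level in fibroblast-like cells of 6.05, 9.92 and 33.4 CPM, below endothelial-like cells by 5.18 ± 0.70 (SD, adjusted p = 0.00203, exact) and above mural-like cells by 3.09 ± 1.70 (SD, adjusted p = 0.00505, exact). Of the 91 fibroblast-like cells with a Tek UMI, 49 also held Ece1 and 9 held Edn1, against 13.7 and 1.16 from the product of the shares in each library, while 3 held Angpt2 against 9.18. These products do not allow for differences in depth between cells. At the thinned depth 1.06% of fibroblast-like cells held a Tek UMI. Whether these cells carry RNA of endothelial cells was not tested.

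The endothelin receptors were divided between lineages. Ednra had 189, 255 and 357 CPM in fibroblast-like cells and 75.5, 162 and 269 in mural-like cells at the lowest, median and highest library, a difference of 0.87 ± 0.57 (SD, log2) with fibroblast-like cells higher in 11 of 11 libraries (adjusted p = 0.00203, exact). In endothelial-like cells the highest library reached 0.899, and 10 UMIs were found in 6959 cells. Mural-like exceeded endothelial-like cells by 6.87 ± 0.71 (SD, log2; adjusted p = 0.00203, exact). Ednrb had 86.1, 261 and 402 CPM in endothelial-like cells, 69.5, 150.4 and 254 in mural-like cells and 1.90, 3.67 and 8.02 in immune-like cells. Endothelial-like exceeded mural-like cells in only 8 of 11 libraries, by 0.72 ± 0.92 (SD, log2; adjusted p = 0.0474, exact), which did not pass when adjusted over the pairs of all genes (adjusted p = 0.0676, exact). The call was also lost under 3 alternatives while the direction was kept. The difference was 0.62 in the 8 libraries of the later deposit (adjusted p = 0.172, exact), 0.72 with a gate of at least 5 markers (adjusted p = 0.0546, exact) and 1.41 with cells thinned to 1000 UMIs (adjusted p = 0.0621, exact). Mural-like exceeded immune-like cells by 4.86 ± 1.09 (SD, adjusted p = 0.00203, exact).

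Mural-like cells carried both endothelin receptors, and their 380 Ednrb UMIs all lay in smooth muscle-like cells. In 238 smooth muscle-like cells, Ednrb had a median of 144 CPM over 10 libraries and Ednra one of 118. The 34 pericyte-like cells held 60 Ednra UMIs, 55 Angpt1 UMIs and 19 Angpt2 UMIs, and 27 of the 34 had an Ednra UMI. None of them had an Ednrb UMI, which allows up to 8.82% of such cells to hold one at their depth, and 114 of the 238 smooth muscle-like cells (47.9%) had one. Thinned to 1000 UMIs per cell, the share in smooth muscle-like cells was 10.5%. No library held 10 pericyte-like cells, so this contrast has no test and the cells cannot be said to differ, and median depth was 3364 UMIs in pericyte-like against 10219 in smooth muscle-like cells. Of the 278 mural-like cells 238 were smooth muscle-like, so levels of the mural lineage mostly reflect these. Pooled over libraries, Ednra and Angpt1 levels in pericyte-like cells were above the pooled fibroblast-like levels (276 and 319 CPM), which was not tested. Among immune classes, Ednrb was found in monocyte/interstitial macrophage-like cells at 7.0, 17.7 and 53.9 CPM at the lowest, median and highest library, and 0.967% of these cells held a UMI at the thinned depth against 0.0721% of B cell-like cells.

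The processing enzyme gene Ece1 was the most widespread member. Endothelial-like cells had 622, 736 and 840.0 CPM at the lowest, median and highest library, and the libraries varied little. Epithelial-like cells followed with 60.4, 75.4 and 82.3, lower by 3.28 ± 0.16 (SD, log2; adjusted p = 0.00203, exact). Below them came mural-like (median 42.7), fibroblast-like (22.9) and immune-like cells (16.8). Epithelial-like exceeded mural-like cells by 0.62 ± 0.43 (SD, adjusted p = 0.00505, exact) and mural-like exceeded fibroblast-like cells by 0.92 ± 0.91 (SD, adjusted p = 0.00763, exact), the latter reversing to -0.37 in cells thinned to 1000 UMIs. Fibroblast-like and immune-like cells did not differ beyond the spread (adjusted p = 0.0711, exact). In epithelium, AT1-like cells, the flat cells of the alveolar surface, had a median of 174 and AT2-like cells one of 79.4, and among immune classes dendritic-like cells stood at a median of 93.9.

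**Figure D2:**
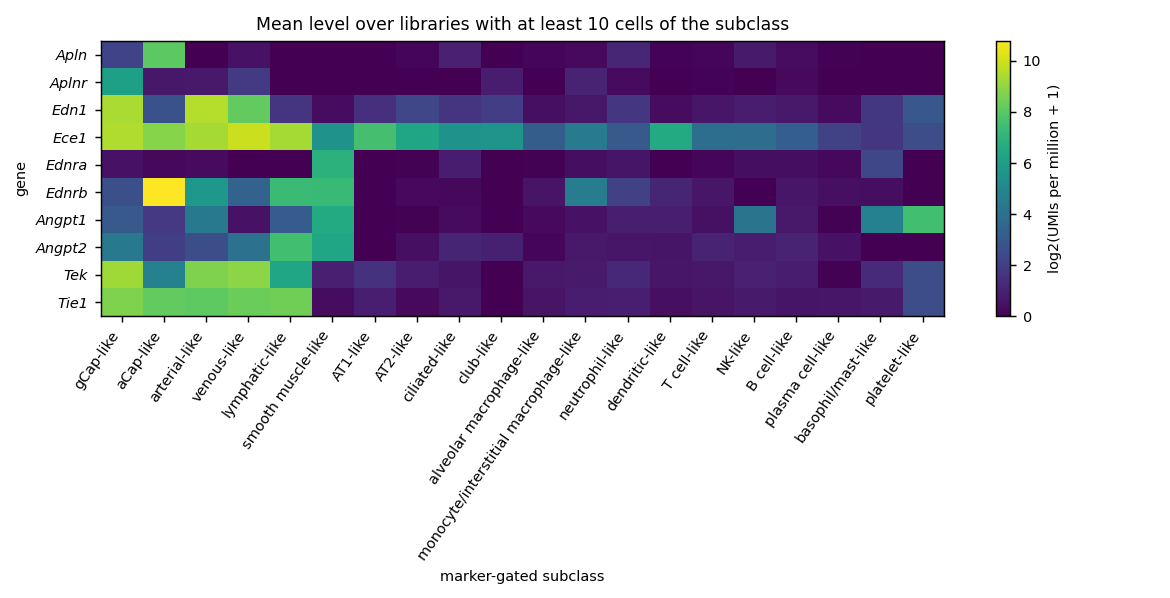
Mean level of each gene over libraries with at least 10 cells, as log2(CPM + 1), in 20 marker-gated subclasses (columns). Bright cells show Apln and Ednrb in the aCap-like column, Edn1 and Tek in gCap-like, arterial-like and venous-like columns, and Angpt2 in lymphatic-like and smooth muscle-like columns.

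The clearest split lay between the capillary types. Apln and Ednrb were in aCap-like cells, whereas Aplnr, Edn1 and Tek were in gCap-like cells. Apln had 175, 249.6 and 407 CPM in aCap-like cells at the lowest, median and highest library, against 0, 2.23 and 15.3 in gCap-like cells. Ednrb had 1120.5, 1899 and 2568 in aCap-like and 0, 3.12 and 23.6 in gCap-like cells. Edn1 had 0, 5.23 and 13.2 in aCap-like and 447, 674 and 922 in gCap-like cells, and Tek had 8.07, 26.3 and 36.6 against 506, 628 and 739.6. Aplnr was at 2 UMIs in all 836 aCap-like cells and at 21.1, 68.3 and 147 CPM in gCap-like cells. For each of these 5 genes the ranges of the capillary types did not overlap. The ranges did not overlap for Angpt2 and Tie1 either, whereas those of Angpt1 and Ece1 did. This made 7 of the 9 members with a median above 3 UMIs per library in either type. Among the 10859 genes that met the same minimum, 10.2% had ranges that did not overlap. The members were chosen with earlier results of these data known, so these shares are not a test of the list.

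Within libraries, the aCap-like minus gCap-like difference in log2(CPM + 1) was 6.48 ± 1.36 for Apln and 8.79 ± 1.49 for Ednrb (SD, n = 11). It was -5.61 ± 1.07 for Aplnr, -7.09 ± 1.24 for Edn1 and -4.61 ± 0.62 for Tek. Each had the same sign in 11 of 11 libraries (exact sign-flip permutation test, adjusted p = 0.00203). Where 1 type is near 0, the size of the difference depends on the 1 CPM added. The kinase receptor Tie1 and the enzyme Ece1 were in both types, lower in aCap-like cells by smaller amounts, with differences of -0.53 ± 0.19 and -0.74 ± 0.35 (adjusted p = 0.00203, exact). Angpt2, at a median of 16.9 CPM in gCap-like cells and 0 in aCap-like cells, differed by -3.05 ± 1.52 (adjusted p = 0.00203, exact), and Angpt1 by -1.78 ± 1.38 (adjusted p = 0.00505, exact).

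**Figure D3:**
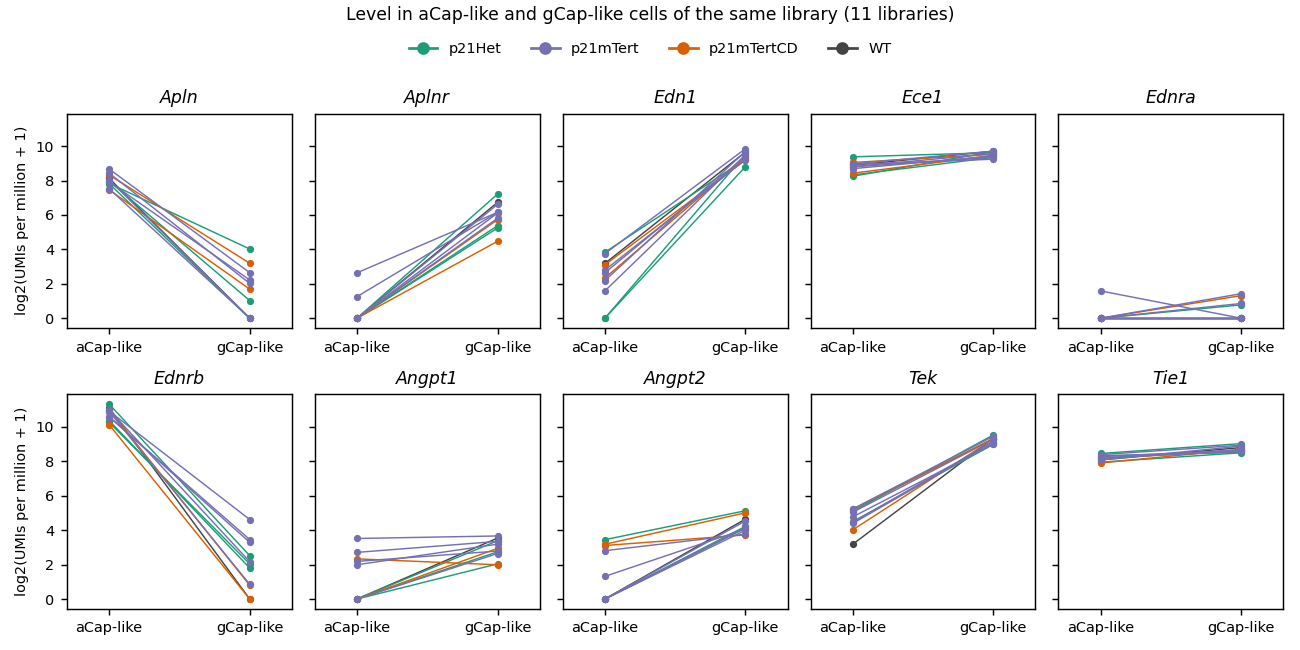
Level of each gene in aCap-like and gCap-like cells of the same library, joined by a line, as log2(CPM + 1) for 11 libraries. Lines for Apln and Ednrb run down from aCap-like to gCap-like cells, lines for Aplnr, Edn1 and Tek run up, and lines for Tie1 and Ece1 are close to level.

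The 836 aCap-like cells were 12% of endothelial-like cells and held 90.8% of Apln and 90.3% of Ednrb UMIs of that lineage, but 0.162% of Edn1, 0.170% of Aplnr and 0.706% of Tek UMIs. The gCap-like cells were 67.4% of the lineage and held 96.5% of Aplnr UMIs. Their shares of Edn1 (76.8%) and Tek UMIs (73.9%) were nearer to their share of cells. Shares of aCap-like cells among endothelial-like cells ran from 3.67% in p21Het replicate 3 (11 cells) to 15.6% in WT. The library with the lowest share also had the lowest endothelial level of Ednrb (86.1) and of Apln (14.8), and the part of the share in these levels was not tested.

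Shares of cells told the same split at equal depth. With each cell thinned to 1000 UMIs, which every kept cell reached, 71.7% of aCap-like cells held an Ednrb UMI (exact 95% interval 68.5% to 74.7%) against 0.235% of gCap-like cells (0.117% to 0.419%). For Apln the shares were 22.4% (19.6% to 25.3%) and 0.192% (0.0878% to 0.364%). For Tek they were 2.15% (1.28% to 3.38%) in aCap-like and 41.9% (40.5% to 43.3%) in gCap-like cells. B cell-like cells, which should lack these genes, gave 0.0721% for Ednrb, 0.0262% for Apln and 0.0721% for Tek at that depth, with a median of 4119 UMIs before thinning against 4000 in aCap-like and 3243 in gCap-like cells. Before thinning, the shares were 90.3% and 0.853% for Ednrb, 53.5% and 0.533% for Apln, and 8.49% and 78.2% for Tek, in aCap-like and gCap-like cells in that order. Intervals cover counting error only.

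Joint detection in single endothelial-like cells followed the capillary types. Apln and Ednrb were found together in 433 of the 483 cells with Apln, against 69.4 from the product of their shares in each library. The ligand Apln and its receptor gene Aplnr met in 11 cells, against 58.3. Edn1 and Ednrb met in 78 cells, against 449.9, and Ednrb and Tek in 204, against 648. Inside aCap-like cells alone, Apln and Ednrb were together in 421 cells against 406. Inside gCap-like cells, Angpt2 and Aplnr met in 72 cells against 44.2, while Edn1 and Aplnr met in 385 against 429. These counts carry no test, since cells of a library are not replicates. The products of shares do not allow for depth, and deeper cells detect both genes of a pair more often.

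A few gCap-like cells departed from the split. Apln was detected in 25 of 4689 gCap-like cells, and 34 of its 85 UMIs there came from 1 cell of p21Het replicate 2. Ednrb was detected in 40 gCap-like cells with 91 UMIs, and 1 cell of p21mTert replicate 2 held 17 of them.

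Promoter sequences are printed for Apln and Ednrb, high in aCap-like cells, and for Edn1 and Tek, high in gCap-like cells, to set the capillary types side by side. They are RefSeq promoters on GRCm38.p6, cut to the 250 bases before the start that RefSeq gives and written 5' to 3' on the gene's strand. Capitals mark matches on either strand to 1 of 5 motifs, namely the ETS core, searched as AGGAAG, the AP-1 motif, searched as TGANTCA, the motif of GATA factors, searched as AGATAA, the hypoxia response element core, searched as NACGTG, and the KLF motif, searched as CACCC. The windows are chrX:48034854-48035103 (minus strand) for Apln, chr14:103843702-103843951 (minus) for Ednrb, chr13:42301226-42301475 (plus) for Edn1 and chr4:94739039-94739288 (plus) for Tek. In GENCODE M21, no transcript covers the Apln, Edn1 and Tek windows, while the RefSeq start of Ednrb lies inside the GENCODE span of the gene and its window in an intron of 1 transcript.
Apln: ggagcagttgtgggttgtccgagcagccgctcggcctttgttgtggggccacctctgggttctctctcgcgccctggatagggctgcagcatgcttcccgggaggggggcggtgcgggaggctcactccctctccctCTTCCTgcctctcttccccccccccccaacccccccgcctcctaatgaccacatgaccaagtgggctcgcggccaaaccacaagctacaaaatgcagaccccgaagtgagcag
Ednrb: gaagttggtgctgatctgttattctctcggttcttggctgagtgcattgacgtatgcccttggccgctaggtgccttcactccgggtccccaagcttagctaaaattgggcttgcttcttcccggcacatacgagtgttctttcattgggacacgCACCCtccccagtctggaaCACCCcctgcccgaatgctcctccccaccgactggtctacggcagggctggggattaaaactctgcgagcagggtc
Edn1: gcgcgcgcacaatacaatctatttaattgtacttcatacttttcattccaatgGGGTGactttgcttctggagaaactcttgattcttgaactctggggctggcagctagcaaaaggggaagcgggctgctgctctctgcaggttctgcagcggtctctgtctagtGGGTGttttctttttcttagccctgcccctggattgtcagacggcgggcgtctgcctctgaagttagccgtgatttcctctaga
Tek: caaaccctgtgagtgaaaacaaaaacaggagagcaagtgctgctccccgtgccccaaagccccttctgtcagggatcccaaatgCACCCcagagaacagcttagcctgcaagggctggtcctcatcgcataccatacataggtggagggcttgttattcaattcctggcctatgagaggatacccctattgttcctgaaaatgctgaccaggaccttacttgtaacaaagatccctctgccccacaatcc

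Apln held 1 match to the ETS core, which 29.5% of 32851 promoters of the same length hold. Ednrb and Edn1 each held 2 CACCC matches and Tek 1, a motif found in 52.0% of promoters. No match to TGANTCA (6.75% of promoters), AGATAA (9.99%) or NACGTG (16.5%) lay in the 4 windows. The guanine and cytosine share was 65.2% for Apln, 56.8% for Ednrb, 50.4% for Edn1 and 51.2% for Tek, beside a median of 52.4% over all promoters. No motif was common to the aCap-like pair and missing from the gCap-like pair in these windows. RefSeq promoters were matched for 7 of the 10 members. By GENCODE M21 (GRCm38), the genes lie at chrX:48025146-48034853 (Apln), chr2:85136225-85139923 (Aplnr), chr13:42301476-42307990 (Edn1), chr8:77663031-77724464 (Ednra), chr14:103814625-103844402 (Ednrb), chr4:137862237-137965229 (Ece1), chr15:42424723-42676977 (Angpt1), chr8:18690263-18741562 (Angpt2), chr4:94739289-94874976 (Tek) and chr4:118471191-118490061 (Tie1).

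Other endothelial subclasses added to the picture of the gCap-like genes. Edn1 was in arterial-like cells at 300.4, 759 and 1496 CPM at the lowest, median and highest of 10 libraries and in venous-like cells at 101, 279 and 443. Tek had medians of 423 in arterial-like and 471 in venous-like cells but 79.9 in lymphatic-like cells. In lymphatic-like cells Edn1 was nearly missing, with 4 UMIs in 285 cells, while Ednrb had a median of 174 CPM and Tie1 one of 332. Ece1 had medians of 930.3 in venous-like, 645.5 in arterial-like and 634 in lymphatic-like cells. Angpt1 within the endothelial lineage had a median of 14.5 in arterial-like cells, from 47 UMIs in all.

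For each member, the 3 genes with the most similar levels over 20 subclasses were taken among 11365 genes, with members and gate markers left out. Fibroblast-like cells had no subclass and are not among the 20, so the lists for Ednra and Angpt1 leave out the lineage where these 2 genes were highest. Pericyte-like cells are not among the 20 either. Ednra stood far above the rest in smooth muscle-like cells alone and Apln in aCap-like cells alone, so their r values rest mostly on that subclass. Platelet-like cells, where the 3 genes nearest to Angpt1 were highest, came from only 2 libraries. This is a description across subclasses that share libraries, and carries no p. Tie1 was closest to Sox18, a vascular transcription factor gene (Pearson r = 0.99), followed by Ccm2l (0.98) and Fgd5 (0.98). Tek was closest to Grrp1 (0.97), to Ptprb, whose phosphatase product acts on Tie2 (0.96), and to Gpr182 (0.96). Ednra was closest to Atp1b2 (0.99), Olfr1033 (0.97) and Spon2 (0.96), and Edn1 to Myrip (0.96), Cyp26b1 (0.95) and Tcf23 (0.95). Apln had Slc5a12 (0.96), Tmeff2 (0.93) and Lmntd1 (0.92), all highest in aCap-like cells, and Angpt2 had Fam124a (0.95), Nr2f1 (0.95) and Fkbp10 (0.92). Likeness was lower for Ednrb, with Tnxb (0.86), Serpina3n (0.85) and Fndc1 (0.85), for Aplnr, with Sox11 (0.90), Clec12b (0.86) and Car14 (0.85), and for Angpt1, with P2rx1 (0.85), Ilk (0.85) and Myl6 (0.80). Ece1 had Slc9a3r2 (0.92), Amotl1 (0.92) and Lrp5 (0.92).

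A list of 16 further genes of these systems was examined, and 12 of the 16 reached a mean of 10 CPM in a lineage while 4 did not. Of the other ligands, Edn3 stood at 19.8 ± 5.5 (SD, n = 11) in fibroblast-like cells and Angpt4 at 25.1 ± 19.6 in mural-like cells. Among epithelial subclasses, AT1-like cells had a higher Edn3 mean, 33.9 ± 17.7 (SD, n = 10). Of the peptidases, Furin, a precursor-cleaving protease, had its highest lineage mean in immune-like cells (114 ± 22.1). Mme, a membrane peptidase that degrades small peptides, had 237 ± 64.0 in fibroblast-like and 215 ± 14.6 in epithelial-like cells, within the spread of each other, and 315 ± 29.4 in AT2-like cells. Of the genes acting on Tie receptors, Ptprb had 2539 ± 279 in endothelial-like cells. Its mean over libraries was 3111 in gCap-like but 35 in aCap-like cells, the same side of the capillary split as Tek. Svep1, which encodes an extracellular matrix protein, had 206 ± 40.5 in fibroblast-like cells. Downstream genes Foxo1 (113 ± 19.5), Nos3 (54.8 ± 8.2), Akt1 (85.0 ± 10.8) and Arrb1 (154 ± 18.2) had their highest lineage mean in endothelial-like cells, and Dok2 (27.1 ± 6.0) and Arrb2 (72.0 ± 13.4) in immune-like cells (all SD, n = 11). For Akt1 and Foxo1, single immune subclasses stood above the endothelial-like mean. Akt1 was at 112 ± 10.2 in alveolar macrophage-like and Foxo1 at 121 ± 14.4 in B cell-like cells (SD, n = 11). The order of lineages was not tested for these further genes.

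The series compares genotypes, and the question here was whether any of the 10 genes differed between p21Het, p21mTert and p21mTertCD lungs within a class. None was called in the reported test, and 2 alternatives made calls. UMIs summed per library and class were tested with edgeR's quasi-likelihood test over all genes, in 7 classes and 3 contrasts. Members passed the filter on low counts in 129 class and contrast combinations: 9 in endothelial-like and gCap-like, 8 in immune-like, 5 each in aCap-like, mural-like and fibroblast-like, and 2 in epithelial-like cells, so that not every member was tested everywhere. In 0 of these 129 tests did a member pass an adjusted p under 0.05, and the smallest adjusted p was 0.571. DESeq2 called 0 members as well. Over all genes it called more than edgeR in several classes, with counts given below under the dependence on the processing. Without the filter on low counts, Aplnr and Ednrb were called in gCap-like cells (p21mTert over p21mTertCD), where that setting called 176 of 18317 genes (0.961%). With the replicate number as a block Ednrb was called in endothelial-like cells (p21mTert over p21Het, edgeR adjusted p = 0.0419), where that setting called 34 of 11223 genes (0.303%). At an unadjusted p under 0.05 there were 10 of 129 (7.75%), beside 3.19% to 8.53% of all genes over the 21 comparisons. The 129 tests share libraries and cells and are not independent.

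The background of calls was low too. In endothelial-like cells edgeR called 2 of 11022 genes (0.0181%) between p21mTert and p21Het, 12 (0.109%) between p21mTert and p21mTertCD, and 1 (0.00907%) between p21mTertCD and p21Het. In the same order it called 1, 19 and 11 of 9639 genes in gCap-like cells (0.0104%, 0.197% and 0.114%), and 3, 0 and 0 of 5764 in aCap-like cells (0.052%, 0% and 0%). In epithelial-like cells 10, 4 and 1 of 12701 genes were called (0.0787%, 0.0315% and 0.00787%), and in immune-like cells 5, 1 and 63 of 15468 (0.0323%, 0.00646% and 0.407%). In mural-like (4531 genes) and fibroblast-like cells (9303 genes) edgeR called 0% in each contrast, with 205 to 276 and 297 to 535 genes at an unadjusted p under 0.05, and DESeq2 called 0 in mural-like and 1 or 2 in fibroblast-like cells. In aCap-like cells the contrasts without an edgeR call had 330 and 280 genes at an unadjusted p under 0.05, and DESeq2 called 0. The median log2 fold change of the members tested lay between -0.51 and 0.59 over the comparisons, and that of all genes between -0.02 and 0.02. The former is a median of only 2 to 9 genes, the latter of 4531 to 15468. A median of few genes varies more, so the widths of these ranges cannot be compared.

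**Figure D4:**
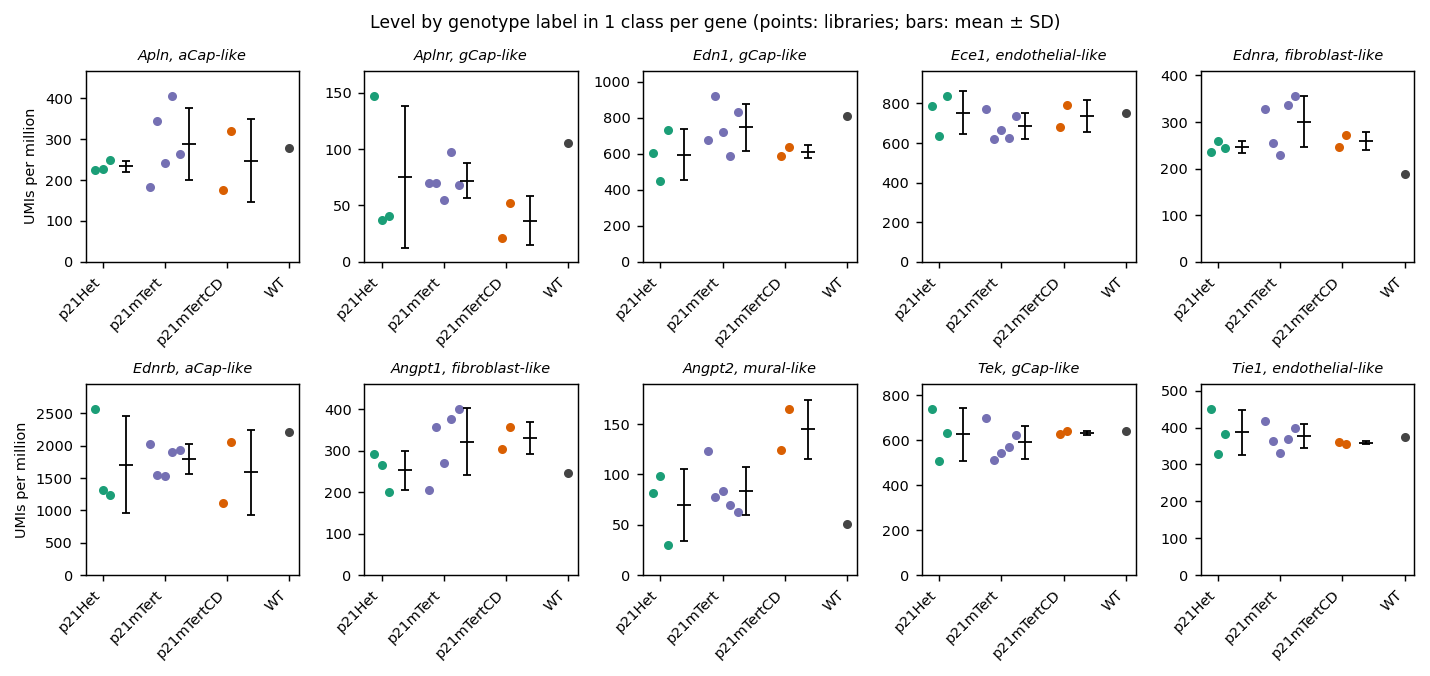
CPM of each gene by genotype label, in the class named above each panel, with a point per library and bars for mean ± SD of groups with more than 1 library. Genotype ranges overlap in most panels. Both p21mTertCD libraries stand above all others for Angpt2 in mural-like cells, the lower of them only barely.

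For the apelin genes the spread within a label was wide. Apln in aCap-like cells was at 225, 227 and 249.6 CPM in p21Het, at 183, 344, 242, 407 and 263 in p21mTert, and at 175 and 319 in p21mTertCD (replicates in order). The p21mTert libraries lay on both sides of the p21Het ones, and the log2 fold change was 0.37 ± 0.23 (SE, edgeR adjusted p = 1.00), or 0.24 without p21mTert replicate 4. Aplnr in gCap-like cells was at 147, 36.9 and 40.5 in p21Het, against 70.0, 70.1, 55.1, 96.9 and 68.3 in p21mTert and 21.1 and 52.0 in p21mTertCD. Within p21Het the single first-deposit library was far above the others, and both p21mTertCD libraries were below all 5 p21mTert libraries. The p21mTert over p21mTertCD log2 fold change was 0.88 ± 0.42 (SE, edgeR adjusted p = 0.854), but 1.62 without p21mTertCD replicate 2 and 0.50 without p21mTertCD replicate 1. Without p21Het replicate 1, the p21mTert over p21Het log2 fold change moved from 0.10 to 0.84.

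The endothelin genes gave no call in their main classes. Edn1 in gCap-like cells was at 604, 447 and 733 CPM in p21Het, at 674, 922, 723, 589 and 828 in p21mTert, and at 584 and 638 in p21mTertCD. The groups overlapped, with a p21mTert over p21Het log2 fold change of 0.38 ± 0.18 (SE, edgeR adjusted p = 1.00), or 0.25 without p21mTert replicate 2. Ednrb in aCap-like cells was at 2568, 1323 and 1230.3 in p21Het, against 2033, 1549, 1531, 1899 and 1940.0 in p21mTert and 1120.5 and 2052 in p21mTertCD, so that the widest spread lay inside p21Het. The highest p21Het value came from the first deposit, and the lowest from 11 aCap-like cells. Without p21Het replicate 1, the p21mTert over p21Het log2 fold change of Ednrb moved from 0.06 to 0.41. Ednra in fibroblast-like cells was at 236, 259.8 and 243 in p21Het, against 327, 255, 229.7, 336 and 357 in p21mTert and 246 and 273 in p21mTertCD, with a p21mTert over p21Het log2 fold change of 0.28 ± 0.15 (SE, edgeR adjusted p = 0.892). Ece1 in endothelial-like cells ran from 622 to 840.0 over the 10 libraries, and its 3 log2 fold changes lay between -0.17 and 0.05.

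Over endothelial-like cells as a whole, Ednrb was at 402, 159.7 and 86.1 CPM in p21Het, against 261, 266, 244, 308 and 269 in p21mTert and 141 and 233 in p21mTertCD. The p21mTert libraries lay inside the p21Het range, with a log2 fold change of 0.38 ± 0.31 (SE, edgeR adjusted p = 1.00). With the replicate number as a block, the log2 fold change was 1.14 ± 0.20 (SE, edgeR adjusted p = 0.0419). This fit could use only the 8 numbered libraries and so left out p21Het replicate 1 and p21mTert replicate 1. Replicates 4 and 5 of p21mTert and replicate 1 of p21mTertCD were each alone in their block. The blocked p21mTert over p21Het value thus rests on replicates 2 and 3. In those replicates aCap-like cells, which hold most Ednrb UMIs, were 14.5% and 13.9% of endothelial-like cells in p21mTert against 9.89% and 3.67% in p21Het. Within aCap-like cells the blocked Ednrb value was 0.32 (edgeR adjusted p = 1.00). The part of the aCap-like share in the blocked call was not tested.

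Ednrb in gCap-like cells had the largest fitted fold of the members tested. Its UMIs were 3, 23, 19, 2 and 28 in p21mTert, 0 and 1 in p21mTertCD, and 5, 7 and 3 in p21Het, among 221 to 813 gCap-like cells per library. The fitted p21mTert over p21mTertCD log2 fold change of 4.07 ± 1.49 rests on these few UMIs (SE, edgeR adjusted p = 0.616). It was 3.49 without p21mTertCD replicate 1. Without p21mTertCD replicate 2 that group holds 0 UMIs, and the fitted value is then set by the prior count and is not given. Over the pooled libraries, 75 UMIs against 1 gave a CPM ratio of 18.7 (exact 95% interval 3.25 to 746, counting error only). Without the filter on low counts it was called, at an adjusted p of 0.00100, together with Aplnr (adjusted p = 0.00196, both edgeR). Of the 23 Ednrb UMIs in p21mTert replicate 2, 17 came from 1 cell, and of the 19 in replicate 3, 13 came from 1 cell.

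Of the 10 results with an unadjusted p under 0.05, 1 was the Ednrb result just given, and 4 were Angpt1 in endothelial-like and Angpt2 in mural-like cells. Angpt1 in endothelial-like cells was at 12.3, 8.14, 7.08, 6.05 and 10.8 CPM in p21mTert, with p21Het at 6.87, 4.32 and 4.50 and p21mTertCD at 4.85 and 3.61. All 5 p21mTert libraries were above both p21mTertCD libraries, and 4 of the 5 were above all p21Het libraries. The log2 fold change was 0.73 ± 0.28 against p21Het (SE, unadjusted p = 0.0229, edgeR adjusted p = 1.00) and 1.00 ± 0.37 against p21mTertCD (SE, unadjusted p = 0.0184, edgeR adjusted p = 0.621), from 7 to 36 UMIs per library. The latter was 0.66 without p21mTertCD replicate 2. Angpt2 in mural-like cells was at 124 and 165 in p21mTertCD, at 81.6, 98.2 and 29.9 in p21Het, and at 123, 77.5, 83.5, 69.7 and 62.9 in p21mTert. Both p21mTertCD libraries were above the other 8, the lower (124) only barely above p21mTert replicate 1 (123). The log2 fold change was 0.97 ± 0.35 against p21Het (SE, unadjusted p = 0.0136, edgeR adjusted p = 0.993). With p21mTert lower, it was 0.86 against that label (unadjusted p = 0.0162, edgeR adjusted p = 0.999), from 7 to 37 UMIs per library. The value against p21Het was 0.64 without p21Het replicate 3 and 1.40 without p21Het replicate 2. The Angpt1 contrasts share the p21mTert libraries, and the Angpt2 contrasts share the p21mTertCD libraries. The other 5 were Angpt1 in mural-like cells (0.71, p21mTertCD over p21Het, unadjusted p = 0.0457), Tek in endothelial-like cells (-0.23, p21mTert over p21mTertCD, unadjusted p = 0.0462), Ece1 in epithelial-like cells (-0.20 for p21mTert over p21Het, unadjusted p = 0.0396, and -0.22 for p21mTert over p21mTertCD, unadjusted p = 0.0466) and Tie1 in immune-like cells (-0.84, p21mTertCD over p21Het, unadjusted p = 0.0300), all log2 fold changes by edgeR.

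In fibroblast-like cells Angpt1 was at 292, 266 and 200.4 CPM in p21Het, against 206, 357, 269, 376 and 401 in p21mTert and 304 and 357 in p21mTertCD. The p21mTert libraries overlapped those of p21Het, whereas both p21mTertCD libraries were above all 3 p21Het libraries. The log2 fold changes were 0.37 ± 0.21 (p21mTert over p21Het, SE, edgeR adjusted p = 0.895) and 0.42 ± 0.25 (p21mTertCD over p21Het, SE, edgeR adjusted p = 1.00). Without p21Het replicate 3 these were 0.22 and 0.28. Of the angiopoietin receptor genes, Tie1 in endothelial-like cells had fold changes near 0. Tek in gCap-like cells had log2 fold changes of -0.05 (p21mTert over p21Het), -0.19 (p21mTert over p21mTertCD) and 0.13 (p21mTertCD over p21Het). Tek in gCap-like cells ran from 506 to 739.6 and Tie1 in endothelial-like cells from 328 to 451 over the 10 libraries, and both ends of each range were p21Het libraries. Tie1 had log2 fold changes of -0.01 ± 0.09 (p21mTert over p21Het) and -0.01 ± 0.11 (p21mTertCD over p21Het, SE, edgeR adjusted p = 1.00).

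**Figure D5:**
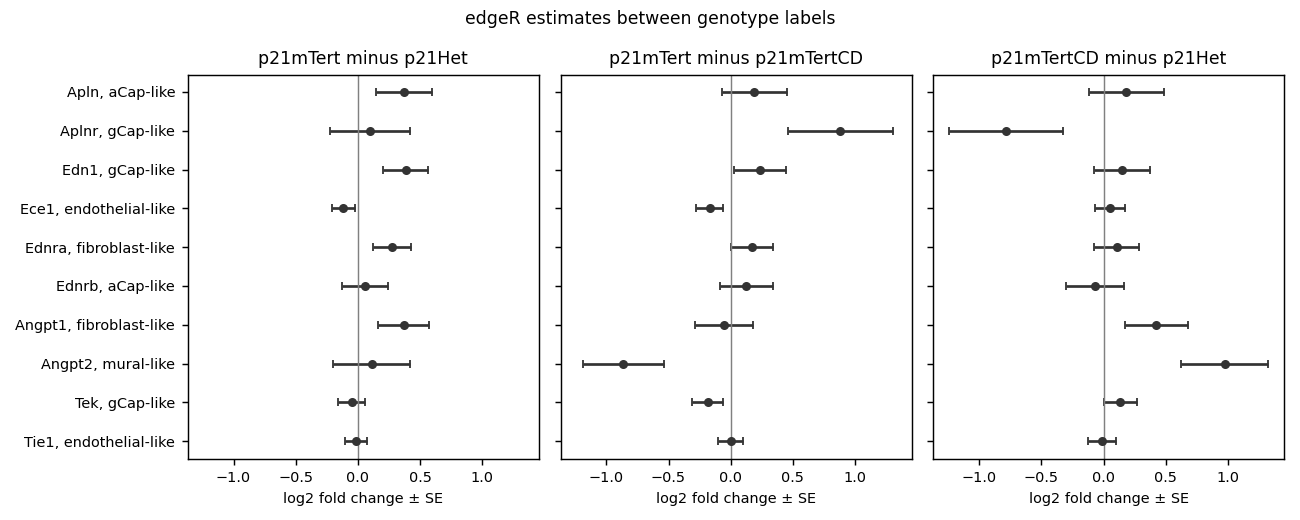
edgeR log2 fold changes (horizontal axis) with bars of 1 SE for each gene in its class, in 3 contrasts between genotype labels. Tie1 lies close to 0, Tek and Ece1 lie between -0.19 and 0.13, and the widest bars are those of Aplnr in gCap-like and Angpt2 in mural-like cells.

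The single WT library gave values only, with exact 95% Poisson intervals that cover counting error alone. Apln in aCap-like cells was at 279 CPM (217 to 352) and Ednrb at 2212 (2031 to 2405). In gCap-like cells Aplnr was at 105 (83.3 to 131), Edn1 at 807 (744 to 874) and Tek at 643 (587 to 703). These 5 values lay within the range of the other 10 libraries. Ednra in fibroblast-like cells was at 189 (153 to 231), lower than in each of the 10 other libraries, and Angpt1 there was at 246 (205 to 293).

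None of the 16 further genes was called between genotypes either. Of these, 14 passed the filter in at least 1 class, giving 156 tests with 0 calls by edgeR in either direction (smallest adjusted p = 0.324) and 19 at an unadjusted p under 0.05 (12.2%). Over all genes tested that share was 3.19% to 8.53% in the 21 comparisons. The 156 tests are not independent, as capillary classes lie within endothelial-like cells and contrasts share groups. The same gene can thus count several times, and an excess cannot be read from the pooled share.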

How the data were processed

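Whole-lung cell suspensions from 11 libraries were profiled with 10x Genomics 3' chemistry. The submitters' processing notes name Cell Ranger and the mm10 build. Sources differ on the software version, which is left out. The matrices deposited by the authors hold raw UMI counts per gene and barcode, with at least 500 UMIs per barcode. Kept cells held 1000 to 30000 UMIs, no more than 14% of them mitochondrial. A cell took the lineage with the most detected markers, at least 3 and at least 2 times any other lineage, and a subclass needed at least 2 markers and more than any other. Cells of mixed lineage (2151) were left out in this way, and Scrublet (scanpy 1.11.5), whose own threshold marked 0.997% to 3.89% of cells, served as an alternative at 0.8% per 1000 barcodes. Names ending in "-like" rest on RNA markers alone. Members and lists were chosen with earlier results of these data known.

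Counts were summed per library and class (at least 10 cells) and tested with edgeR 4.0.16 (quasi-likelihood, filterByExpr, TMM; R 4.3.3) on the 10 libraries of the 3 replicated groups, with Benjamini-Hochberg adjustment over all genes; DESeq2 1.42.0 was an alternative. Both were tested on simulated counts, as was the sign-flip test (numpy 2.4.6, scipy 1.17.1). Levels between classes used log2(CPM + 1), with CPM taken within the class, computed from the deposited counts. All 10 members are named, and further pathway genes are named where they were called or reached 10 CPM in a lineage. Genes alike in level needed at least 20 CPM in a subclass. Depth was 42038434 to 85988955 UMIs per library, with 4133 to 6454 per cell at the median. Counts of 3 UMIs or fewer were treated as the floor.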

Additional observations from a re-analysis of the deposited data

Results flagged for a closer look

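Cells that fell into no lineage (6302 of 69266) entered no comparison, yet they held UMIs of every member, more than the 3 that a count of 0 allows. They held 15.0% of all Ednra UMIs, 14.3% of Angpt1, 13.5% of Apln and 13.4% of Ednrb UMIs. For Angpt2 the share was 11.4%, for Ece1 10.4%, for Tie1 9.62% and for Tek 9.07%. The lowest shares were 7.59% for Aplnr and 7.54% for Edn1. Which cells these are was not tested. No p21mTert library stood apart from the other 4 by Dixon's test in any of the 12 gene and class pairs examined, and groups of 3 or fewer were not tested.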

How the results depend on the processing

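In total 43 differences between classes, 36 log2 fold changes and 21 counts of called members were computed under the alternatives. Of the values obtained, 1331 kept their direction and their side of the threshold, counts that stayed at 0 among them. The others were 53 reversals, 7 lost calls, 3 gained calls and 2 changed counts. The counts of called members stayed at 0 with 2 exceptions. Without the filter on low counts, 2 members (Aplnr and Ednrb) were called in gCap-like cells between p21mTert and p21mTertCD, among 176 of 18317 genes (0.961%). With a replicate block, 1 member (Ednrb, log2 fold change 1.14, edgeR adjusted p = 0.0419) was called in endothelial-like cells between p21mTert and p21Het. The replicate block could use only the 8 libraries with a number in their label, and this contrast rests on replicates 2 and 3. In these, aCap-like shares of endothelial-like cells were also higher in p21mTert (14.5% and 13.9% against 9.89% and 3.67%). Blocked contrasts with p21mTertCD rest on 1 library of that label, replicate 2. Correlations of the deviations of same-numbered libraries ran from -0.38 to 0.16 over 28 pairs in 7 classes. Of these, 3 were above 0.1 and in 0 classes was every pair above it, so the numbers are not taken to pair the libraries. Over all genes, DESeq2 called more than edgeR in several classes, for example 62 against 12 in endothelial-like, 49 against 19 in gCap-like (p21mTert minus p21mTertCD) and 101 against 5 in immune-like cells (p21mTert minus p21Het), and the block called 34 against 2 in endothelial-like cells (p21mTert minus p21Het).

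Among called differences between classes, Ednrb in endothelial-like over mural-like cells missed the threshold with a gate of at least 5 markers (0.72), with thinned cells (1.41) and in the later deposit (0.62). Angpt2 in mural-like over endothelial-like cells missed it with thinned cells (1.29), as did Tie1 in immune-like over epithelial-like cells (0.34, adjusted p = 0.240, exact). Edn1 in immune-like over mural-like cells missed it in the later deposit (0.60, adjusted p = 0.0829, exact) and by Scrublet (0.53, adjusted p = 0.0597, exact). Aplnr in fibroblast-like minus immune-like cells passed it with thinned cells only (-0.28, adjusted p = 0.0140, exact). With thinned cells, Ece1 in mural-like minus fibroblast-like (-0.37) and Apln in epithelial-like minus immune-like cells (-0.39, adjusted p = 0.00465, exact) reversed. Differences near 0 changed sign: Aplnr fibroblast-like minus immune-like (0.0079 with pseudocount 5, 0.14 in the later deposit, 0.0074 by Scrublet), Ednra epithelial-like minus immune-like (0.0006, 0.0579 and 0.0811 in the same order), Tek mural-like minus immune-like (0.0633, pseudocount 5) and Tek immune-like minus epithelial-like (-0.021, Scrublet).

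None of the reversed log2 fold changes was past the threshold, in the reported test or the alternative. With the replicate block, reversals were Ednrb in aCap-like cells (-0.19 for p21mTert minus p21mTertCD, 0.52 for p21mTertCD minus p21Het), Aplnr in gCap-like (0.23, p21mTertCD minus p21Het), Ednra (-0.0428, same contrast) and Angpt1 (0.16, p21mTert minus p21mTertCD) in fibroblast-like cells and Tie1 (0.0294, p21mTert minus p21Het). With a term for the deposit they were Apln (-0.0409) and Ednrb (0.13) in aCap-like cells (p21mTertCD minus p21Het) and Tie1 (-0.0112 and 0.0066). In the later deposit they were Ednrb in aCap-like cells (0.285, p21mTertCD minus p21Het), Angpt1 in fibroblast-like cells (0.064) and Tie1 (0.0179, -0.0068 and 0.0248). Tie1 also moved to 0.0029 and 0.0023 with a mitochondrial maximum of 10%, to -0.0043 with DESeq2 and to -0.0023 with a gate of at least 5 markers. Angpt2 in mural-like cells was at -0.44 by Scrublet (p21mTert minus p21Het).

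Leaving out 1 library at a time moved Apln in aCap-like cells between -0.0616 and 0.66 (p21mTert minus p21mTertCD) and -0.27 and 0.44 (p21mTertCD minus p21Het). Ednrb there ranged from -0.11 to 0.41 (p21mTert minus p21Het), from -0.18 to 0.55 (p21mTert minus p21mTertCD) and from -0.47 to 0.29 (p21mTertCD minus p21Het), and Aplnr in gCap-like cells from -0.22 to 0.84 (p21mTert minus p21Het, the highest without p21Het replicate 1). Tie1, with the 3 contrasts in the order given for Ednrb, ranged from -0.0402 to 0.0227, from -0.0895 to 0.0897 and from -0.10 to 0.0737. Angpt1 ranged from -0.13 to 0.0651 in fibroblast-like cells (p21mTert minus p21mTertCD) and from -0.51 to 0.0654 in endothelial-like cells (p21mTertCD minus p21Het), and Angpt2 in mural-like cells from -0.22 to 0.54 (p21mTert minus p21Het). The causes were not tested. Mural-like cells numbered 11 to 42 and aCap-like cells 11 to 145 per library, which limits the precision of their levels.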
